A study of Mus musculus with 2 samples.

Results

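Mitoribosomal protein genes, which encode the proteins of the mitochondrial ribosome, were compared between CD4 T cells grown in CD103+ Th1 and in Th1 medium. They were taken as all genes whose symbol is Mrpl or Mrps followed by a digit, on probe sets that the platform annotation assigned to exactly 1 gene. They numbered 76, of 18193 genes named on the array, with 47 Mrpl and 29 Mrps genes on 156 of the 45037 probe sets.

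The mitochondrial ribosome, or mitoribosome, translates the few messages of the mitochondrial genome, which encode core subunits of the respiratory chain and of ATP synthase. Its RNA comes from the mitochondrial genome, whereas its proteins are encoded in the nucleus, made by cytosolic ribosomes and imported. Most proteins of the large subunit carry the symbol Mrpl and most of the small subunit Mrps, with exceptions that are named below. Naive T cells hold few and small mitochondria, and activation is known to bring growth of the organelle and of its translation machinery.

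The study set CD4 T cells grown in CD103+ Th1 medium against CD4 T cells grown in Th1 medium, with 1 Affymetrix expression array in each group. Wild type C57BL/6 mice gave the splenic cells, which a magnetic sorter brought to a purity above 98%. In both groups they received antibodies against the T cell receptor and CD28, with 2 days of stimulation, 3 more days of culture and harvest after 5 days in all. For CD103+ Th1 cells the medium held 3 ng/ml of IL-4, 10 ng/ml of IFN-γ and 3 ng/ml of TGF-β. For Th1 cells it held 1 ng/ml of IL-12 and 1 µg/ml of a monoclonal antibody to IL-4. The integrin chain CD103 binds E-cadherin on epithelium, and Th1 cells are the helper cells that make IFN-γ. There were no replicates, so no test was made, no p-value is given, and the spread between cultures or arrays is unknown for every value. The media differ in several cytokines at once, whose parts cannot be told apart. The number of mice behind each culture is not stated in the labels, and in such bulk RNA fewer cells of a type and less RNA per cell cannot be told apart.

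The array reads each transcript with one or more sets of short probes, and the signal of such a set is a brightness in arbitrary units on a linear scale. Each gene was read from the probe set chosen by its highest mean log2 signal over both arrays, so these signals serve as a description of the chosen probe sets. A floor was set at the median of all signals, 78.5, and a gene above it on at least 1 array was called measured, which held for 11194 genes. On both arrays all 76 mitoribosomal genes were brighter than the floor, and their lowest signal was 292. Every ratio below is the signal in CD103+ Th1 over that in Th1, so a negative log2 ratio means a lower signal in CD103+ Th1.

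Messages for mitoribosomal proteins were mostly a little lower in CD103+ Th1 cells. The median signal of the 76 genes was 1819 in CD103+ Th1 and 2149 in Th1. Of the 76, 65 had a log2 ratio below 0, which is 85.5% of them, against 52.6% of all measured genes. Their median log2 ratio was -0.35, a 1.28-fold lower signal, and the middle of the group ran from -0.56 at the lower quartile to -0.15 at the upper quartile. Over all measured genes the median was -0.03, with quartiles at -0.35 and 0.30.

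Single differences were small. At least 1.5-fold lower signals were found for 17 members, or 22.4%, against 13.4% of all measured genes. No member was at least 1.5-fold higher, against 12.4% of all measured genes. A difference of 2-fold was reached by Mrps10 alone, at 2.00-fold lower, where 4.87% of measured genes were that much lower or more and 5.04% that much higher or more. Both signals lay within 1.1-fold of each other for 14 members. The log2 ratios of the members spanned -1.0 to 0.38.

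**Figure D1:**
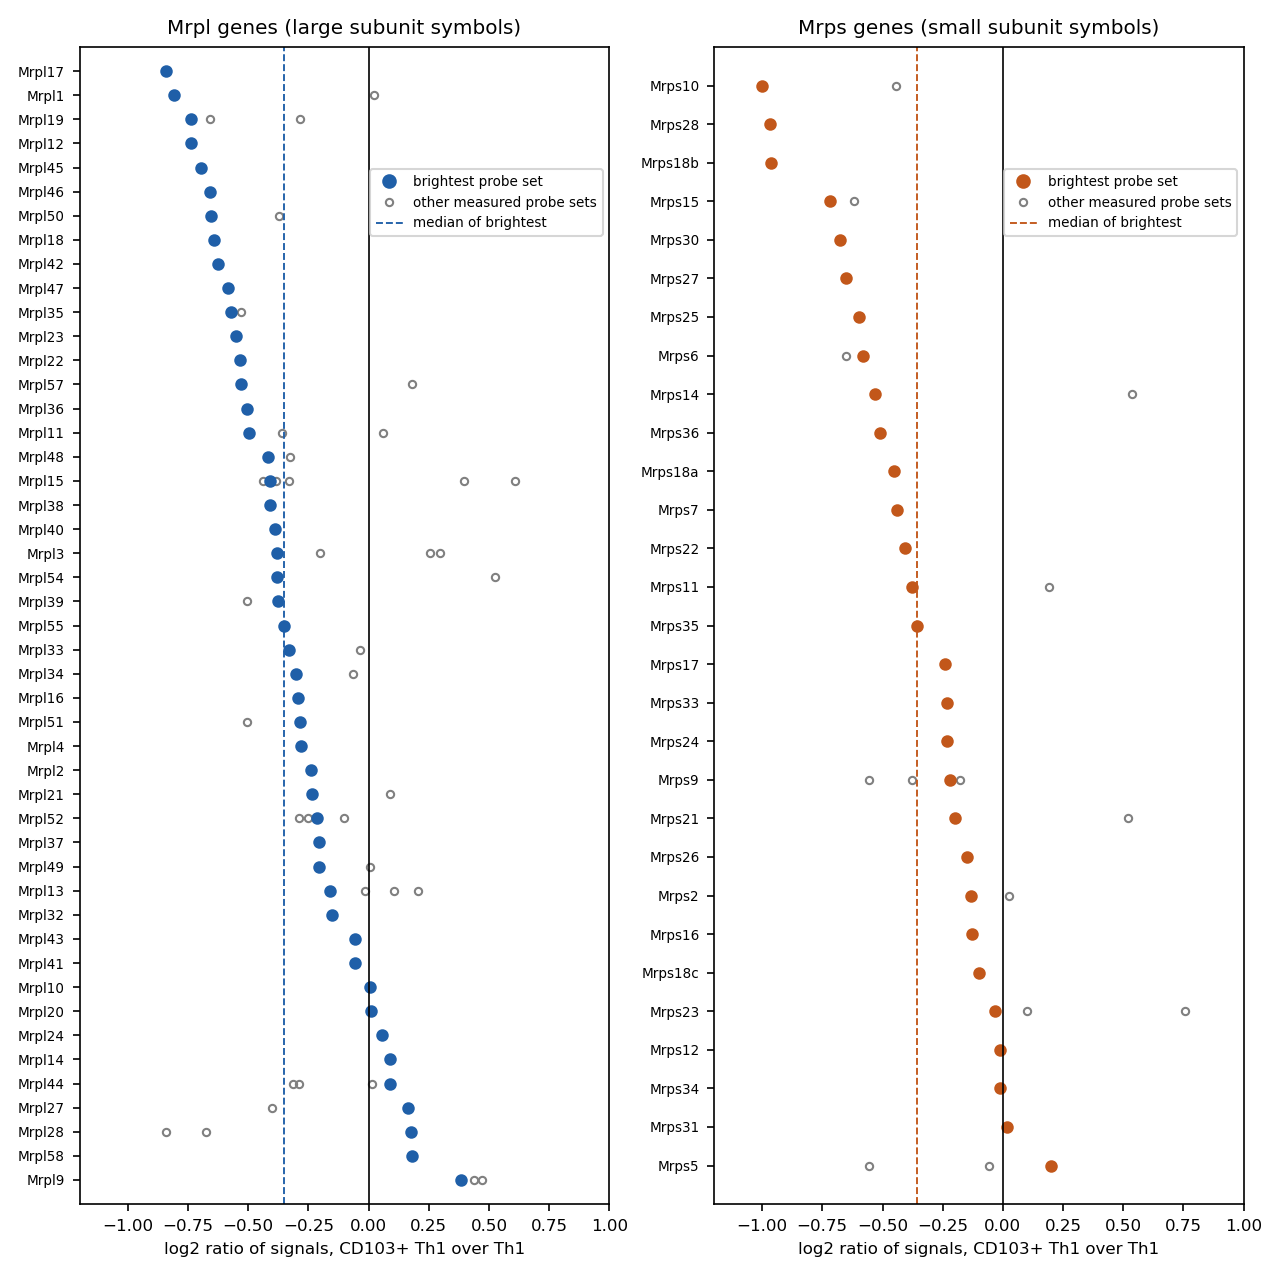
Log2 ratio of signals, CD103+ Th1 over Th1 (horizontal axis), for the 47 Mrpl genes (left) and the 29 Mrps genes (right), 1 gene per row. Filled points are the brightest probe set of each gene, open circles are its other measured probe sets, and the dashed line is the median of the filled points. Most filled points lie left of 0 in both panels, and the medians are -0.35 and -0.36.

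Mrps10, a protein of the head of the small subunit, gave 1083 in CD103+ Th1 and 2169 in Th1, and its log2 ratio was -1.0. Its dimmer probe set had a log2 ratio of -0.44, in the same direction but smaller. Mrps28, another small subunit protein, had 767 in CD103+ Th1 and 1499 in Th1, or 1.95-fold lower in CD103+ Th1. Mrps18b had 685 in CD103+ Th1 and 1335 in Th1, also 1.95-fold lower in CD103+ Th1. These 3 small subunit genes were the lowest of all 76 by ratio. Mrps18b has paralogs, Mrps18a and Mrps18c, of which the product of Mrps18a sits in the large subunit. Mrps18a had 1150 in CD103+ Th1 and 1572 in Th1, a log2 ratio of -0.45, and Mrps18c had 3558 in CD103+ Th1 and 3814 in Th1, a log2 ratio of -0.10. The 3 paralogs therefore lay in one direction and differed in size.

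Of the large subunit genes, Mrpl17 had the lowest ratio, with 1906 in CD103+ Th1 and 3413 in Th1, or 1.79-fold lower in CD103+ Th1. Its bacterial counterpart sits near the exit of the tunnel through which the new chain leaves. Mrpl1, whose counterpart forms the mobile stalk beside the exit site for transfer RNA, had 418 in CD103+ Th1 and 731 in Th1, or 1.75-fold lower in CD103+ Th1. The other probe set of Mrpl1 had 253 in CD103+ Th1 and 249 in Th1, so the gene's lower signal was seen on 1 of its measured probe sets only. Mrpl19 had 1179 in CD103+ Th1 and 1967 in Th1, a log2 ratio of -0.74, and its further probe sets ran up to -0.29. Mrpl12, which forms the stalk that recruits translation factors and is also known to bind the mitochondrial RNA polymerase, had 2250 in CD103+ Th1 and 3749 in Th1, or 1.67-fold lower in CD103+ Th1.

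Mrps15 had 2379 in CD103+ Th1 and 3915 in Th1, or 1.65-fold lower in CD103+ Th1, with a second probe set at a log2 ratio of -0.62. Mrpl45, which helps to anchor the ribosome at the inner membrane, had 1514 in CD103+ Th1 and 2453 in Th1, or 1.62-fold lower in CD103+ Th1. Mrps30 had 1039 in CD103+ Th1 and 1660 in Th1, or 1.60-fold lower in CD103+ Th1, and despite its symbol its product is placed in the large subunit by ribosome structures. The 10 genes described so far as lowest came from both subunits, with 5 under each symbol.

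The remaining members at least 1.5-fold lower were Mrpl46, Mrpl50, Mrps27, Mrpl18, Mrpl42, Mrps25 and Mrpl47, with log2 ratios of -0.66 to -0.59. Mrps27, an RNA-binding protein of the pentatricopeptide repeat family, was the dimmest member, with 292 in CD103+ Th1 and 459 in Th1. Mrpl18 was among the brighter ones, with 3446 in CD103+ Th1 and 5370 in Th1. Lower signals were thus seen from the dim to the bright end of the group.

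The 11 members above 0 lay mostly close to it. Mrpl9 had the highest ratio, with 3114 in CD103+ Th1 and 2389 in Th1, 1.30-fold higher, and its 3 measured probe sets ran from 0.38 to 0.47 on the log2 scale. It was the only member with several measured probe sets that were all above 0. Mrps5 had 949 in CD103+ Th1 and 825 in Th1, a log2 ratio of 0.20. Mrpl58, which acts as a peptidyl-tRNA hydrolase that frees chains from stalled ribosomes, had 3210 in CD103+ Th1 and 2835 in Th1, a log2 ratio of 0.18. Mrpl28 had 1925 in CD103+ Th1 and 1702 in Th1, also 0.18. For Mrpl27 the signals were 3758 in CD103+ Th1 and 3359 in Th1, a log2 ratio of 0.16.

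Mrpl28, Mrpl27, Mrps5 and Mrpl44 each had another measured probe set below 0. For Mrpl28 they gave 1400 in CD103+ Th1 against 2237 in Th1 and 1069 in CD103+ Th1 against 1914 in Th1, log2 ratios of -0.68 and -0.84. The second probe set of Mrpl27 had 346 in CD103+ Th1 and 457 in Th1, a log2 ratio of -0.40. The other measured probe sets of Mrps5 had log2 ratios of 0.21, -0.06 and -0.56. The one at -0.56 was dim, with 84.1 in CD103+ Th1 and 124 in Th1. Mrpl44, which carries a fold of the RNase III family, had 1787 in CD103+ Th1 and 1678 in Th1 on its brightest probe set. Its log2 ratio there was 0.09, and its other probe sets ran from 0.01 down to -0.31. Among the highest genes, only Mrpl9 therefore had several measured probe sets that all lay above 0.

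Mrpl14 had 1711 in CD103+ Th1 and 1608 in Th1, and Mrpl24 had 5293 in CD103+ Th1 and 5097 in Th1, log2 ratios of 0.09 and 0.05. Mrps31, Mrpl20 and Mrpl10 lay at 0.02 or below on the log2 scale, close to equal signals. On the other side of 0, Mrps12, whose bacterial counterpart shapes the decoding centre, had 1910 in CD103+ Th1 and 1928 in Th1. Mrps34 had 4139 in CD103+ Th1 and 4177 in Th1, again nearly equal.

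**Figure D2:**
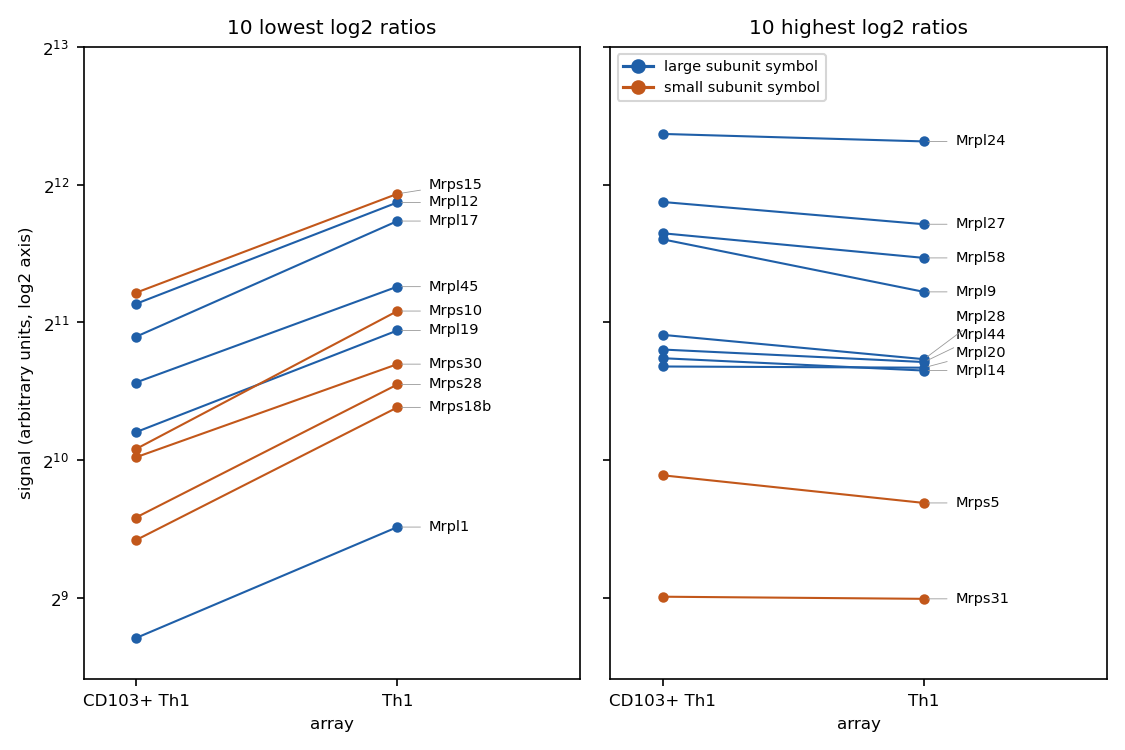
Signal on each array (arbitrary units, log2 axis) for the 10 mitoribosomal genes with the lowest ratio (left panel) and the 10 with the highest (right panel), each line joining CD103+ Th1 and Th1 of 1 gene. Lines in the left panel climb clearly toward Th1, from 1083 in CD103+ Th1 against 2169 in Th1 for Mrps10, whereas those in the right panel are nearly flat apart from Mrpl9.

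Both subunits had nearly the same median under their symbols. The 47 Mrpl genes had a median log2 ratio of -0.35, with 38 below 0 and 10 at least 1.5-fold lower. The 29 Mrps genes had a median of -0.36, with 27 below 0 and 7 at least 1.5-fold lower. As shares, 80.9% of Mrpl and 93.1% of Mrps genes were below 0, and 21.3% of Mrpl and 24.1% of Mrps genes were at least 1.5-fold lower. Sorting by known structure instead, with Mrps18a and Mrps30 in the large subunit and Mrps36 left out, gave -0.38 for the 49 large subunit genes and -0.24 for the 26 small subunit genes. Mrps36, now known as a component of the oxoglutarate dehydrogenase complex, had 1850 in CD103+ Th1 and 2634 in Th1. The difference between the subunits' medians, large minus small, was 0.0046 by symbol and -0.14 by structure, and it changed sign with settings that leave the group's direction as it is.

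Proteins with a counterpart in bacterial ribosomes and those found only in mitochondria both had medians below 0. The 45 genes with a bacterial counterpart had a median of -0.30, with 37 below 0 and 9 at least 1.5-fold lower, and the 30 mitochondria-specific genes had -0.38, with 27 below 0 and 8 at least 1.5-fold lower. By place in the large subunit, the 7 genes of the exit tunnel region, Mrpl4, Mrpl17, Mrpl22, Mrpl23, Mrpl24, Mrpl45 and Mrpl47, had a median of -0.55, and 6 of them lay below 0. Mrpl24 was the one above. The 8 genes of the central protuberance, Mrpl18, Mrpl38, Mrpl40, Mrpl46, Mrpl48, Mrpl52, Mrpl55 and Mrpl58, had a median of -0.40, with Mrpl58 as the one above 0. The 4 genes of the factor-binding stalk, Mrpl10, Mrpl11, Mrpl12 and Mrpl54, had a median of -0.44. These places were assigned after the values were seen, and with so few genes in each they are a description.

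Probe sets of the same gene did not always share a direction. Of the 132 measured probe sets of the group, 99 were below 0, and a further 24 lay under the floor on both arrays. Among the 108 at 4 or more times the floor on the brighter array, 89 were below 0, with a median log2 ratio of -0.32. Of 35 genes with several measured probe sets, 16 had all of them below 0, 1 had all above and 18 were mixed. For the same 35 genes the brightest probe set had a median of -0.33 with 30 below 0, and the second brightest had a median of -0.20 with 23 below 0. Both medians were below 0, and that of the dimmer probe sets was nearer to 0.

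For 16 genes measured probe sets differed in sign and lay at least 0.3 apart. Mrpl1, Mrpl27, Mrpl28, Mrpl44 and Mrps5 were among them, and the other 11 had their brightest probe set below 0. Mrps14 had 4330 in CD103+ Th1 and 6261 in Th1 on the brightest, a log2 ratio of -0.53, but 504 in CD103+ Th1 and 348 in Th1 on the other, a log2 ratio of 0.54. The probe sets of Mrpl57, Mrpl11, Mrpl3, Mrpl54 and Mrps11 ran from log2 ratios of -0.53, -0.50, -0.38, -0.38 and -0.38 up to 0.18, 0.06, 0.30, 0.53 and 0.19, in that order of genes. Mrpl15, with 6 measured probe sets, ran from -0.44 to 0.61 around 2770 in CD103+ Th1 and 3682 in Th1 on the brightest. Its probe sets with 1425 or more in CD103+ Th1 ran from -0.44 to -0.33. The one at 0.61 had 269 in CD103+ Th1 and 176 in Th1. Mrpl21, Mrps21, Mrpl13 and Mrps23 had brightest values of -0.24, -0.20, -0.16 and -0.03 and highest values of 0.09, 0.52, 0.21 and 0.76. For these genes the ratio depends on the probe set read.

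Mitoribosomal genes are brightly measured, and the share of genes below 0 was compared at like brightness. When all measured genes were ranked by mean log2 signal and divided into 4 parts of equal size, the parts held 0, 5, 28 and 43 members in order of brightness. In the brightest part, 36 of 43 members were below 0, against 55.6% of all genes there. There 6 of the 43 were at least 1.5-fold lower, a share not far above the 10.5% of all genes. In the next part, 25 of 28 members were below 0, against 48.4% of all genes, and 9 of the 28 were at least 1.5-fold lower, against 11.3%. The medians of the members in these parts were -0.24 and -0.41, whereas those of all genes were -0.04 and 0.02.

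Other nuclear genes of mitochondria also had medians below 0. The 77 measured respiratory chain and ATP synthase genes had a median of -0.24, with 69 below 0 and 8 lower by 1.5-fold or more. The 28 measured genes for protein import into mitochondria had a median of -0.41, with 25 below 0 and 7 lower by 1.5-fold or more. Cytosolic ribosomal protein genes, which build the other ribosome of the cell, were much brighter than mitoribosomal ones. Their median signals were 25609 in CD103+ Th1 and 26621 in Th1, and the lists were not matched for brightness. The 45 measured cytosolic genes had a median of -0.05, with 36 below 0 but 3 at least 1.5-fold lower. So 22.4% of mitoribosomal genes passed 1.5-fold, beside 7 of the 28 import genes, 10.4% of respiratory chain genes and 6.67% of cytosolic ribosomal genes, where 13.4% of all measured genes passed it. The shares of respiratory chain and cytosolic ribosomal genes lay below that of all genes. No gene of these 4 lists was 1.5-fold higher, against 12.4% of all measured genes. Below 0 were 89.6% of respiratory chain, 89.3% of import and 80% of cytosolic ribosomal genes, against 52.6% of all measured genes.

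**Figure D3:**
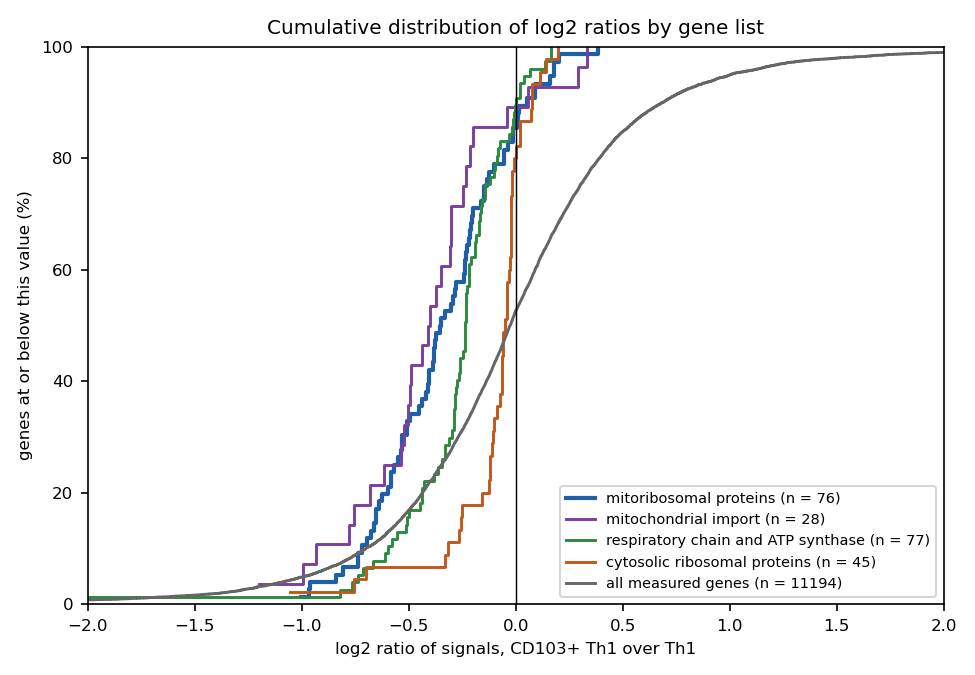
Cumulative share of genes (vertical axis, %) at or below each log2 ratio, CD103+ Th1 over Th1 (horizontal axis), for mitoribosomal, import, respiratory chain and cytosolic ribosomal genes and for all measured genes. The mitoribosomal curve lies between those of import and respiratory chain genes over most of its course, with medians of -0.35, -0.41 and -0.24, while cytosolic ribosomal genes climb steeply just left of 0.

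Mitoribosomal proteins that carry other symbols were looked up separately, in a list that also counts Oxa1l, which is not itself a ribosomal protein. Dap3, a GTP-binding protein of the small subunit, had 2287 in CD103+ Th1 and 4710 in Th1, or 2.06-fold lower in CD103+ Th1. Gadd45gip1, a large subunit protein also called CRIF1, had 1755 in CD103+ Th1 and 3078 in Th1, a log2 ratio of -0.81. Chchd1 had 3863 in CD103+ Th1 and 5129 in Th1, a log2 ratio of -0.41. The ratios of Ptcd3 and of Oxa1l, the inner membrane insertase that receives new chains from the ribosome, were -0.34 and -0.17 on the log2 scale. On their brightest probe sets all 5 genes of this list lay below 0, against 52.6% of all measured genes, with a median of -0.41. Dap3 was lower than any of the 76 by ratio. Other measured probe sets of Ptcd3 and Oxa1l reached up to 0.39 and 0.29, in the opposite direction.

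Among 13 measured translation factors the median was -0.22, and 10, or 76.9%, were below 0, against 52.6% of all measured genes. At least 1.5-fold lower were 4, or 30.8%, against 13.4% of all measured genes. Gfm1, the elongation factor G that moves the ribosome along, had 584 in CD103+ Th1 and 1016 in Th1, a log2 ratio of -0.80. Its other measured probe set had a log2 ratio of -0.22. Lrpprc, which stabilises mitochondrial messages, had 589 in CD103+ Th1 and 916 in Th1. Tufm, the elongation factor Tu that delivers aminoacyl-tRNA, had 821 in CD103+ Th1 and 1242 in Th1, a log2 ratio of -0.60. The other measured probe set of Tufm had a log2 ratio of -0.23. Gfm2, a factor of ribosome recycling, had 334 in CD103+ Th1 and 518 in Th1, but its other measured probe set pointed up at 0.46.

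Factors that assemble the mitoribosome and process its RNA were more evenly divided. The 32 measured had a median of -0.13, with 20, or 62.5%, below 0, against 52.6% of all measured genes. Among them 3 were lower by 1.5-fold or more and 1 higher by as much. The share of lower ones, 9.38%, was below the 13.4% of all measured genes. The GTPase Mtg1 had 544 in CD103+ Th1 and 952 in Th1, and Hsd17b10, a subunit of the enzyme that trims the 5′ ends of mitochondrial transfer RNAs, had 1899 in CD103+ Th1 and 3173 in Th1. Nsun4, a methyltransferase that acts on the small subunit RNA and helps to join the subunits, ran the other way with 822 in CD103+ Th1 and 476 in Th1.

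The 23 measured genes for charging mitochondrial transfer RNA had a median of -0.11. Of them 15, or 65.2%, were below 0, against 52.6% of all measured genes. Lower by 1.5-fold or more were 3, a share of 13.0% that is near the 13.4% of all measured genes. Aars2, the alanyl-tRNA synthetase, had 120 in CD103+ Th1 and 252 in Th1. Nars2, for asparagine, had 261 in CD103+ Th1 and 548 in Th1, and Ears2, for glutamate, had 122 in CD103+ Th1 and 187 in Th1. Genes that transcribe and maintain the mitochondrial genome had a median of 0.08. Of these 13 genes 5, or 38.5%, were below 0, against 52.6% of all measured genes. Tfam, which packages the genome and starts its transcription, had 2268 in CD103+ Th1 and 2094 in Th1. The lowest ratios in that list were those of Lonp1, the matrix protease, with 1332 in CD103+ Th1 and 2849 in Th1, and Top1mt, the mitochondrial topoisomerase, with 97.9 in CD103+ Th1 and 237 in Th1. The others below 0 were the helicase Twnk at a log2 ratio of -0.54, Ssbp1, which coats single-stranded mitochondrial DNA, at -0.37 and Tefm, a transcription elongation factor, at -0.04. Of the 13 genes, 15.4% were at least 1.5-fold lower, near the 13.4% of all measured genes.

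Nuclear factors known to act on genes of mitochondria were also read. Of 12 measured, 7, or 58.3%, were below 0, near the 52.6% of all measured genes. At least 1.5-fold lower were 3, or 25%, against 13.4% of all measured genes. Only 1 was higher by as much, against 12.4% of all measured genes. Myc, a driver of growth in activated T cells, had 2130 in CD103+ Th1 and 3479 in Th1, or 1.63-fold lower in CD103+ Th1. Mycn, its relative, had 96.9 in CD103+ Th1 and 251 in Th1, and Max, the partner of both, had 371 in CD103+ Th1 and 99.1 in Th1. Nrf1, which binds promoters of many respiratory genes, had 682 in CD103+ Th1 and 958 in Th1, a log2 ratio of -0.49, but its 4 measured probe sets reached up to 1.13. Gabpa, the DNA-binding chain of an ETS family factor, had 1601 in CD103+ Th1 and 1304 in Th1, and Ppargc1a lay under the floor on both arrays. These are levels of messages, and whether any of these factors acted on the mitoribosomal genes was not tested.

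**Figure D4:**
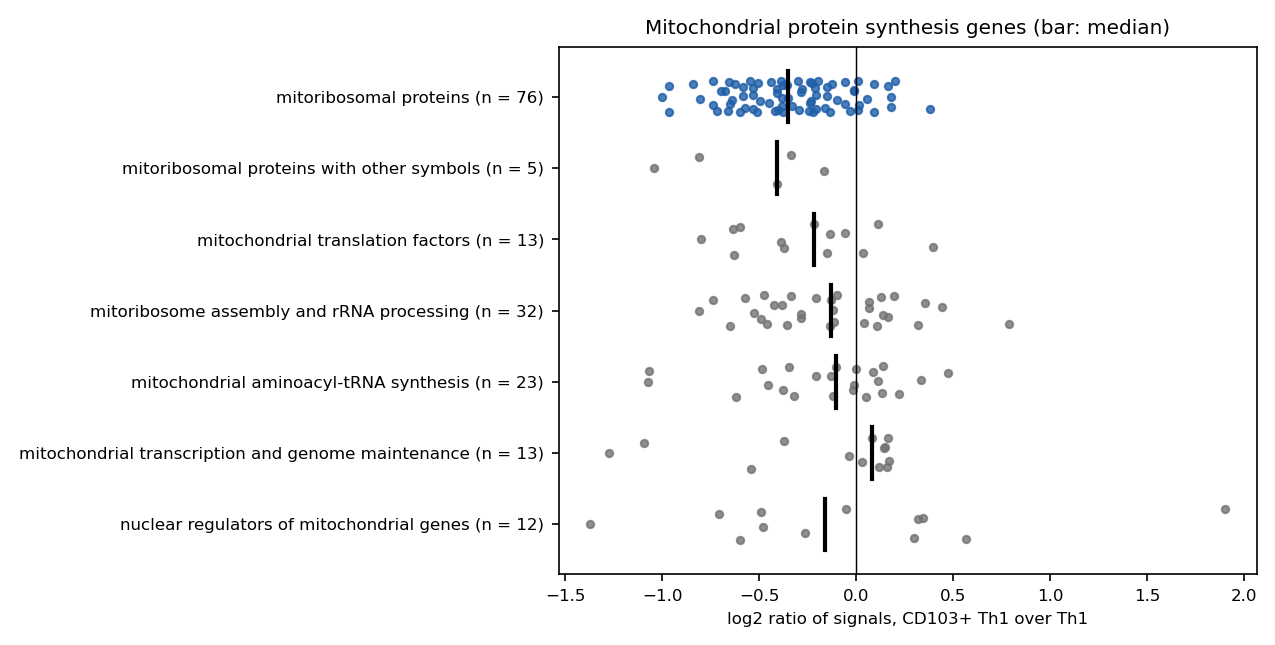
Log2 ratio of signals, CD103+ Th1 over Th1 (horizontal axis), for single genes (points) of 7 lists around mitochondrial protein synthesis, with the median of each list as a black bar. Medians run from -0.41 for mitoribosomal proteins with other symbols, a list that also counts Oxa1l, to 0.08 for transcription and genome maintenance.

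Promoters of the 76 genes were examined for letters that such factors are known to bind. RefSeq promoter windows on GRCm38.p6, from 250 bases before to 50 after the start of the gene, were matched for 67 members. CGCANGCG, a form of the site of NRF1, was found on either strand in 19 of them, or 28.4%, against 9.22% of all 27025 promoters and 19.7% of the 9110 promoters of measured genes. CCGGAAG, a form of the ETS site, was found in 25, or 37.3%, against 9.93% of all promoters and 20.8% of those of measured genes. AAGATGGC, a form of the site of YY1, was found in 12, or 17.9%, against 3.19% of all promoters and 5.47% of those of measured genes. CACGTG, the E-box bound by Myc and Max, was found in 5, or 7.46%, against 8.09% of all promoters and 11.8% of those of measured genes. The 4 motifs were chosen from general knowledge after the ratios had been seen, and a match describes letters and not binding.

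Members had a median below 0 with and without each motif. Members with the NRF1 form had a median of -0.22 and 15 of 19 below 0, against -0.34 and 41 of 48 for those without. Members with the ETS form had -0.28 and 23 of 25 below 0, against -0.38 and 33 of 42 without. All 12 members with the YY1 form were below 0, with a median of -0.41, against 44 of 55 and -0.30 without. Members with the E-box had a median of -0.21 and 4 of 5 below 0, against -0.36 and 52 of 62 without. The 100 bases before the start are printed for the lowest gene of the group, for a pair of low large subunit genes and for the highest gene, with matches to the NRF1 form in capitals. They lie at chr17:47369097-47369196 on the plus strand for Mrps10, chr7:105811088-105811187 on the minus strand for Mrpl17, chr11:120484537-120484636 on the plus strand for Mrpl12 and chr3:94443236-94443335 on the plus strand for Mrpl9.
Mrps10: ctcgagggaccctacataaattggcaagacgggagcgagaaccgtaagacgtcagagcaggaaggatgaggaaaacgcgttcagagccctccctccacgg
Mrpl17: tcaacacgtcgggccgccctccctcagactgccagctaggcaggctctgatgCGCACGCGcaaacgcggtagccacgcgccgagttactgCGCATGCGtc
Mrpl12: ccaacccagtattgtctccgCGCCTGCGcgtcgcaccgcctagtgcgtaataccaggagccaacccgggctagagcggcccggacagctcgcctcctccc
Mrpl9: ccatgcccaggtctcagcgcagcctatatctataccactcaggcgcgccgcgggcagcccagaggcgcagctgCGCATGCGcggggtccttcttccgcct
Mrps10, the lowest gene, has no match in these letters, Mrpl17 has 2, and Mrpl12 has 1 that is read on the other strand. Mrpl9, the gene with the highest ratio, has 1 match too.

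The genes are spread over the genome. They lie on 17 chromosomes, with 11 on chromosome 11 and 8 on chromosome 17. Of the 67 with a promoter window, 26 have a neighbour on the opposite strand whose start lies within 1000 bases of their own. This arrangement is called head-to-head, and the 9 members without a window could not be examined for it. How common it is over all genes was not counted, so it is not given as a trait of the group. Mrpl46 and Mrps11, whose starts are 42 bases apart, are such neighbours of each other, with log2 ratios of -0.66 and -0.38. In 21 pairs the neighbour was a measured gene outside the group. The neighbours had a median of -0.0048, with 12 of 21 below 0, a share near the 52.6% of all measured genes. Of the 21, 1 was lower by 1.5-fold or more and 2 higher by as much. Over all measured genes those shares were 13.4% and 12.4%. The mitoribosomal genes of these pairs had a median of -0.28, with 19 below 0.

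Single pairs went either way. Tcp1, a subunit of the cytosolic chaperonin whose start lies 238 bases from that of Mrpl18, had 8291 in CD103+ Th1 and 15761 in Th1, a log2 ratio of -0.93 beside -0.64 for Mrpl18. Klc4, a kinesin light chain whose start lies 141 bases from that of Mrpl2, had 530 in CD103+ Th1 and 251 in Th1, a log2 ratio of 1.08 beside -0.24 for Mrpl2. Sars2, a mitochondrial tRNA synthetase whose start lies 147 bases from that of Mrps12, had 194 on both arrays, beside the nearly equal signals of Mrps12. Both genes of a pair were below 0 in 11 of 21 pairs.

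The arrays as a whole were closely scaled: the median signal was 78.0 in CD103+ Th1 and 78.8 in Th1, and the mean without the outer 2% at each end was 498 on both. T cell markers were present, with Cd3e at 3652 in CD103+ Th1 and 2721 in Th1 and Cd4 at 1081 in CD103+ Th1 and 973 in Th1, and 8 of the 9 measured had a higher signal in CD103+ Th1. Markers of other cells moved between the groups as well. Of 7 CD8 T and NK cell markers, 4 were measured and all 4 were higher in CD103+ Th1, and the signals of the 6 with a named probe set summed to 14562 in CD103+ Th1 and 5420 in Th1. Cd8a had 2054 in CD103+ Th1 and 466 in Th1, and Cd8b1 had 1593 in CD103+ Th1 and 697 in Th1. Klrd1 had 7546 in CD103+ Th1 and 2008 in Th1, and Klrk1 had 3293 in CD103+ Th1 and 2163 in Th1. Ncr1 and Tyrobp lay under the floor. Of 10 B cell markers, 4 were measured and all 4 were higher, with sums of 8285 in CD103+ Th1 and 2852 in Th1 over 9, while Ms4a1, Cd79a, Pax5, Blnk and Fcrla lay under the floor. Ighm made up most of these sums, with 7712 in CD103+ Th1 and 2443 in Th1, and its probe sets ran from -0.53 to 1.84 on the log2 scale. Cd79b had 244 in CD103+ Th1 and 75.8 in Th1, under the floor, which makes it at least 3.11-fold higher. Of 12 myeloid and dendritic cell markers, 7 were measured and 2 of them higher, with sums of 5063 in CD103+ Th1 and 4074 in Th1, while Cd14, Itgam, Lyz2, Itgax and Fcgr3 lay under the floor. Cst3, with 3146 in CD103+ Th1 and 3193 in Th1, made up most of these sums. The 2 higher ones were H2-Aa, with 798 in CD103+ Th1 and 58.5 in Th1, at least 10.2-fold higher, and Mpeg1, with 660 in CD103+ Th1 and 5.75 in Th1, at least 8.41-fold higher. Cd68 was 2.25-fold lower, with 104 in CD103+ Th1 and 233 in Th1. No marker was listed at 0, and the part of other cells in the mitoribosomal values was not tested.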

How the data were processed

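Total RNA of 2 cultures, CD103+ Th1 and Th1, was hybridised to 1 Affymetrix array each. The authors' deposited values are linear signal intensities of each probe set, made with GCOS per the submitters' processing notes. Its version, the scaling target and any filter are not given in the sources used here. Signals condense several short probes, and ratios of dim probe sets are less certain. Of the 4 parts of measured genes by mean log2 signal, the dimmest had 16.7% at least 1.5-fold lower and the brightest 10.5%.

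No further scaling was applied. Signals under the floor (the median over both arrays, 78.5) were set to it, and ratios were taken for probe sets above it on at least 1 array. Gene names came from the platform annotation, with symbols updated by gene identifier to the GRCm38.p6 gene table for 34741 of the 34945 with 1 symbol. Another 932 had several symbols and were left out, and 9160 were unnamed here. Genes were named in the text where they were among the 10 lowest or highest members, had probe sets in opposite directions, or were the 3 furthest from 0 in a list, with a few fixed additions. The members and lists were chosen with earlier results of these data known. Head-to-head neighbours, motifs and places in the ribosome were added after the ratios were seen.

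With 1 array per group no test was possible, and the number of arrays limits the precision. Alternatives were other scalings, floors, thresholds and choices of probe set. Calculations used Python 3.11.15 with numpy 2.4.6, pandas 2.3.3 and statsmodels 0.14.6, and the scripts were tested on simulated data.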

Additional observations from a re-analysis of the deposited data

How the results depend on the processing

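No paired analysis was possible because each group has 1 array. Over other scalings, floors and probe set choices the median log2 ratio of the mitoribosomal genes ran from -0.39 to -0.25. Of 68 alternative values of the group's medians and counts, 63 were within 0.1 on the log2 scale for a median or within 1.5-fold for a count. Some of these 63 could not differ, so the count is no measure of stability. A lower floor changes no member, since all lay above the main floor, and rescaling a whole array leaves the difference between the subunits as it is. Averaging all measured probe sets of a gene gave medians of -0.25 for the group and -0.24 for the Mrps genes. Sorting by structure gave -0.24 for the small subunit and a difference, large minus small, of -0.14, and over all settings that difference ran from -0.14 to 0.05, so the order of the subunits depends on the setting. At a threshold of 2-fold the count of lower members was 1. Reading only probe sets whose name has no suffix letter, which Affymetrix uses for probes shared by several transcripts, turned Mrpl1 to a log2 ratio of 0.021, Mrpl15 to 0.39, Mrpl21 to 0.09, Mrpl28 to -0.84 and Mrpl44 to -0.31. This setting left 59 members, of which 50 were below 0. Averaging probe sets turned Mrps5, Mrpl27, Mrpl28 and Mrpl44 below 0 and Mrps14, Mrpl54, Mrps21, Mrpl13 and Mrps23 above 0. Of the 10 lowest members, all but Mrpl1 kept their sign under each alternative that gave them a value, against 4 of the 10 highest. Mrps18b and Mrpl17 of the lowest and Mrpl58, Mrpl24 and Mrpl20 of the highest had no value without suffixed probe sets.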

Other observations

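Probe sets that the annotation assigns to a mitoribosomal gene and a second gene were left out of all counts and are given here as values. The probe set shared by Mrpl30 and Gm6238 had 7905 in CD103+ Th1 and 7944 in Th1, and that shared by Mrpl53 and Ccdc142 had 1727 in CD103+ Th1 and 1937 in Th1, a log2 ratio of -0.17. Neither Mrpl30 nor Mrpl53 was named on a probe set of its own here. The probe set shared by Mrps34 and Nme3, a nucleoside diphosphate kinase, had 1139 in CD103+ Th1 and 868 in Th1, a log2 ratio of 0.39, whereas the probe set of Mrps34 alone had nearly equal signals.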
